A study of Drosophila melanogaster with 2 samples.

Results

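The mitochondrial ribosomal protein genes of Drosophila melanogaster were taken as every protein-coding gene whose symbol starts with mRpL, for the large subunit, or mRpS, for the small subunit. The annotation held 73 such genes among 13968 protein-coding genes on the chromosome arms, 47 of the large and 26 of the small subunit. Membership followed from the symbol only and used no measured value, but the family was chosen with earlier results of these data known. CG4404 binding at these genes was read from chromatin immunoprecipitation followed by sequencing (ChIP-seq) in whole embryos aged 0 to 4 hours. The embryos carried a transgene for CG4404 fused to enhanced green fluorescent protein (eGFP), and, per the description in the labels, an antibody to green fluorescent protein pulled the fusion down. Another field of the labels names CG4404 as the antibody, which may stand for the target. There were 2 biological replicates of 1 group. No group without the transgene and no input library were part of the data used, so a peak means what the authors called one, and no condition was compared. The embryos were not sorted, so a peak averages over all their nuclei, an antibody to the tag reports the fusion protein and not the untagged one, and the labels do not give the promoter of the transgene.

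The mitochondrial ribosome translates the few proteins encoded by mitochondrial DNA, which are core subunits of the respiratory chain and of ATP synthase. Its ribosomal RNAs come from mitochondrial DNA, but its proteins are encoded in the nucleus, made in the cytosol and imported. Some of these proteins have counterparts in bacterial ribosomes and others are found in mitochondrial ribosomes only.

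CG4404 peaks lay at 21 of the 73 genes (28.8%), against 14.2% of all protein-coding genes. All 21 stood back to back with another gene, as did 79.5% of the 73 and 68.8% of all protein-coding genes with such a peak. A gene was called bound when the summit of a peak lay within 500 bp of one of its transcription start sites (TSSs), in the list that the authors thresholded after pooling the replicates. A gene was called divergent when a protein-coding TSS of the opposite direction lay within 1000 bp upstream of it, and the sequence between that pair of TSSs is called the gap here. The bound genes encode both subunits, from mRpS10, mRpL41, mRpS23 and mRpL23 with the highest signal to mRpL17 with the lowest.

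The DNA under the summits was rich in A and T. The 7 windows below each hold 81 bp centred on the summit of a bound gene and show that shared feature in peaks from the top to near the bottom of the signal range. They are printed in the direction of the mitoribosomal gene, 5′ to 3′, from the dm6 assembly, and capitals mark runs of 8 or more bases that are all A or T. mRpS10 lies at chr3R:15229494-15229574 (plus strand), mRpS23 at chr2L:13835424-13835504 (minus) and mRpL20 at chr3L:13018107-13018187 (minus). mRpS2 lies at chr2L:4850512-4850592 (minus), mRpL24 at chr2L:4945439-4945519 (minus), mRpS24 at chr3R:24163800-24163880 (minus) and mRpL16 at chrX:1890092-1890172 (plus). All 7 windows lie between genes.
mRpS10: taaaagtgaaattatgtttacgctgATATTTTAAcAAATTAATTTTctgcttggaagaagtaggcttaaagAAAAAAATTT
mRpS23: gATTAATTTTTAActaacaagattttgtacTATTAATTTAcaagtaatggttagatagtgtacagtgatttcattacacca
mRpL20: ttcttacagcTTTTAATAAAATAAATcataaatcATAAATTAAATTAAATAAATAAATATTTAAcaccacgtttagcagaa
mRpS2: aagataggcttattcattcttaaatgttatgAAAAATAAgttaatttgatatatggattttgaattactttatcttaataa
mRpL24: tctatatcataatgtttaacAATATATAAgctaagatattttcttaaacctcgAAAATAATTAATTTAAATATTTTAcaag
mRpS24: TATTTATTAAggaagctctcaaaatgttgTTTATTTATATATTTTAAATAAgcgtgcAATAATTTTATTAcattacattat
mRpL16: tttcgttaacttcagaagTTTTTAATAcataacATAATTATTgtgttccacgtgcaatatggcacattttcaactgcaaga

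The A/T content of these windows ran from 69.1% at mRpL16 to 82.7% at mRpL20 and mRpL24. Runs of A and T filled 46 of the 81 bases at mRpL20 and 45 at mRpS24, but only 8 at mRpS2, whose window is 81.5% A/T with G and C bases scattered through it. A longer run at mRpS2 is cut by the right edge of its window. In a window of 101 bp, which also cuts that run, 17 of its bases lay inside. How the composition and words of the summit windows compare with other promoters is given further on.

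The share of bound genes was 28.8% (21 of 73, 95% Wilson interval 19.7% to 40.01%), against 14.2% of all protein-coding genes. These intervals cover counting error only, and neighbouring genes share peaks. By subunit, 12 of 47 large-subunit genes (25.5%, 15.3% to 39.5%) and 9 of 26 small-subunit genes (34.6%, 19.4% to 53.8%) were bound, and the intervals overlap over most of their length.

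Set beside genes of the same layout, the mitoribosomal genes stood closer to the background. Divergent genes made up 58 of the 73 (79.5%, 68.8% to 87.1%), against 36.2% of all protein-coding genes. Of the 58 divergent genes 21 were bound (36.2%, 25.1% to 49.1%), against 27% of all 5052 divergent protein-coding genes, a value inside the interval. None of the 15 other genes was bound, where 6.95% of all genes without a divergent partner were. A count of 0 of 15 allows a share of up to 20%, so the lack of bound genes there was not distinguishable from the background. Genes bound by CG4404 were mostly divergent across the genome too, at 68.8% of the 1984 bound protein-coding genes.

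**Figure D1:**
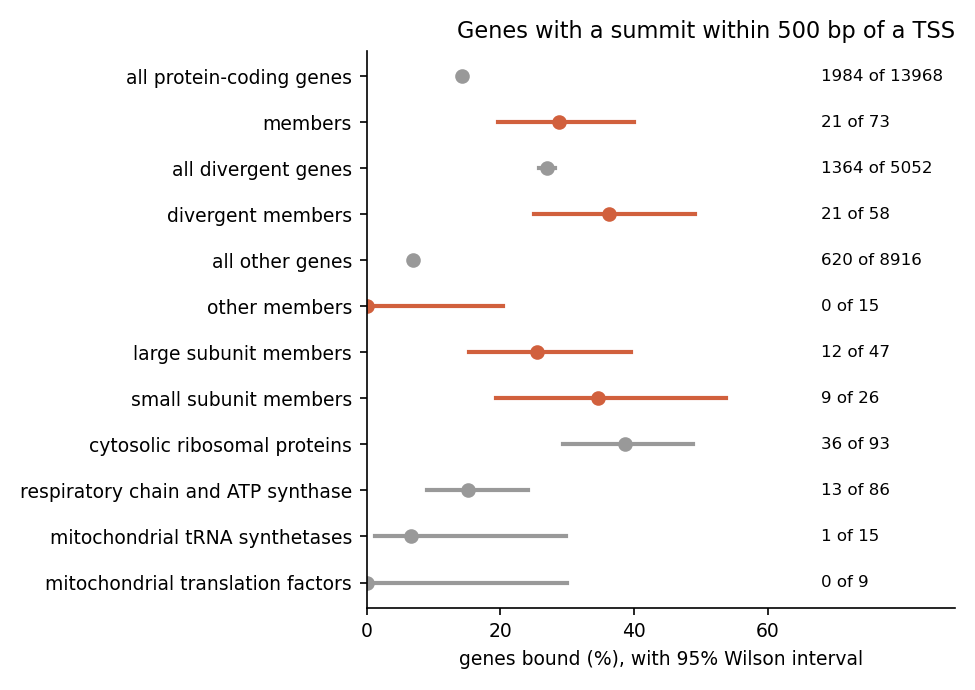
Share of genes with a summit within 500 bp of a TSS in the pooled list, in percent, for the mitoribosomal genes ("members", orange) and for reference sets (grey); lines are 95% Wilson intervals and the counts stand at the right. The divergent members, at 36.2%, have an interval that includes the 27% of all divergent genes, and the members without a partner stand at 0 of 15.

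A peak in a gap belongs to both genes, and the count depends on how it is assigned. The summit was nearer to the TSS of the mitoribosomal gene in 11 of the 21 cases and nearer to that of the partner in 10. When each summit counted only for its nearest protein-coding TSS, 11 of 73 genes were bound (15.1%, 8.63% to 25%), against 10.1% of all protein-coding genes, and 11 of the 58 divergent ones (19%, 10.9% to 30.9%), against 15.8% of all divergent genes. Both intervals include the background. These 11 genes include mRpL53 through a tie, since a TSS of CG33155 was equally near to that summit, at 36 bp.

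The 21 genes held 21 different peaks with 1 summit each. In 20 of the 21 cases (95.2%) the summit was upstream of the mitoribosomal TSS. That share was 88.7% over all bound divergent genes and 87.2% over all bound protein-coding genes. The median lay 131 bp upstream, against 133 bp upstream for all bound divergent genes and 141 bp upstream for all bound protein-coding genes. In 19 cases the summit lay between the pair of TSSs. The exceptions were mRpL23 and mRpL11. At mRpL23, which has 3 annotated start positions, the summit lay 73 bp downstream of the nearest of them, inside its own 5′ UTR. At mRpL11 the summit lay 204 bp upstream, past the TSS of the partner HtrA2 and inside the 5′ UTR of that gene, which encodes a mitochondrial protease. The summit at mRpL53 lay in an intron of AGO1, and the other 18 were intergenic. The counts of summits between TSSs and between genes stand without a share over all bound genes. Only the summit at mRpL41 lay within 500 bp of no other protein-coding TSS, since its partner CG8079 starts 762 bp away.

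**Figure D2:**
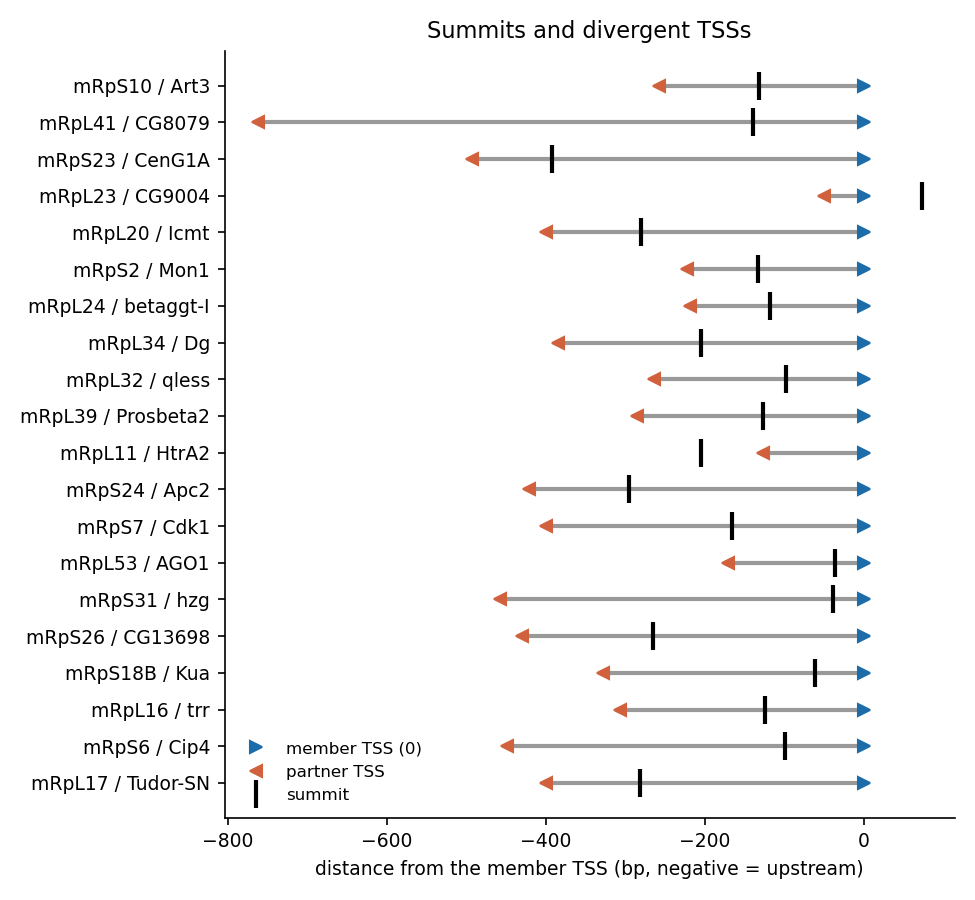
Each of the 20 rows is one bound mitoribosomal gene and its divergent partner, mRpL37 not being shown, from the highest signal at the top to the lowest; the horizontal axis gives the distance from the mitoribosomal TSS nearest to the summit in bp, with negative values upstream. The black summit marks fall between the blue and orange start sites in 18 of the 20 rows, the exceptions being mRpL23 and mRpL11.

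Bound mitoribosomal genes were found mostly at gaps of intermediate length. Among divergent mitoribosomal genes with a gap of 200 to 499 bp, 17 of 31 were bound (54.8%, 37.8% to 70.8%), against 36.9% of all divergent genes with such gaps. With gaps under 200 bp, 3 of 22 were bound (13.6%, 4.75% to 33.3%), against 21.6%. With gaps of 500 to 1000 bp, 1 of 5 was bound, against 15.3%. The median gap was 328 bp for the 21 bound genes and 192 bp for the 37 unbound divergent ones. Over all divergent protein-coding genes the medians ran the other way, at 281 bp for bound and 305.5 bp for unbound genes, although the middle bin held the highest bound share there too. These bins were chosen after the values were seen, and no test was made on them.

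4 peaks stood apart in signal, the value that the peak caller of the authors gives to each peak, in a unit not given in the sources used here. They are at mRpS10, mRpL41, mRpS23 and mRpL23, and their pooled signal was 1832, 1672, 1400 and 1253. They ranked 9, 10, 17 and 22 among the 3835 peaks of the pooled list on the arms. The next mitoribosomal gene, mRpL37, had 455 and ranked 254. Of the 21 bound genes, 4 (19%) had a signal of 1000 or more, against 47 of 1984 bound protein-coding genes (2.37%) and 39 of 1364 bound divergent genes (2.86%). The median over the 21 was 187, against 159 over all bound protein-coding genes and 167 over all bound divergent genes. Without peaks of 1000 or more the order turned, with a median of 132 over the other 17 genes, 157 over 1937 bound protein-coding genes and 162 over 1325 bound divergent genes. The threshold of 1000 was set with the values in view, 4 genes are few, and no test was made.

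mRpS10 encodes the counterpart of a bacterial protein of the small subunit head, and its divergent partner is Art3, a protein arginine methyltransferase gene 257 bp away. The peak measured 977 in replicate 1 and 855 in replicate 2 (916 ± 85.9, SD, n = 2). These values come from the list of each replicate alone and are not on a scale shared with the pooled list, so only their order and ratio are of use. The summit lay 131 bp from the mRpS10 TSS and 126 bp from that of Art3, almost in the middle of the gap, and the replicate summits lay 1 bp upstream and 7 bp downstream of it.

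mRpL41 encodes a large-subunit protein without a bacterial counterpart. Its peak measured 942 and 737 in replicates 1 and 2 (840 ± 145, n = 2), with the summit at chr2R:15217756, 139 bp upstream of the TSS. mRpS23, a small-subunit protein gene, shares a gap of 492 bp with CenG1A, which encodes an Arf GTPase-activating protein. The peak there measured 787 and 614 (701 ± 122, n = 2) and lay 392 bp upstream of the mRpS23 TSS but 100 bp from that of CenG1A. At the gene for mRpL23, whose bacterial counterpart lines the end of the exit tunnel of the ribosome, the peak measured 672 and 579 (625 ± 65.5, n = 2), with the summit at chr3L:2373605. Its partner CG9004 starts 24 bp from the most upstream mRpL23 TSS, the shortest gap of the bound genes. In each replicate these 4 genes were the 4 highest of the family, in the same order, with ranks of 9 to 26 in the replicate lists.

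The next 4 genes by signal were mRpL37, mRpL20, mRpS2 and mRpL24, with pooled signals of 455, 332, 288 and 287. Replicates 1 and 2 gave 267 and 195 at mRpL37. They gave 194 and 142 at mRpL20, beside Icmt, a protein carboxyl methyltransferase gene, and 154 and 126 at mRpS2, beside Mon1, which acts in endosome maturation. At mRpL24, beside the protein prenylation gene betaggt-I, they gave 152 and 136. The replicates gave these genes the same order except that replicate 2 put mRpL24 above mRpS2, whose pooled signals are nearly equal. At mRpL24 and mRpS2 the gap is 218 and 222 bp long and the summit lay 118 and 133 bp upstream.

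**Figure D3:**
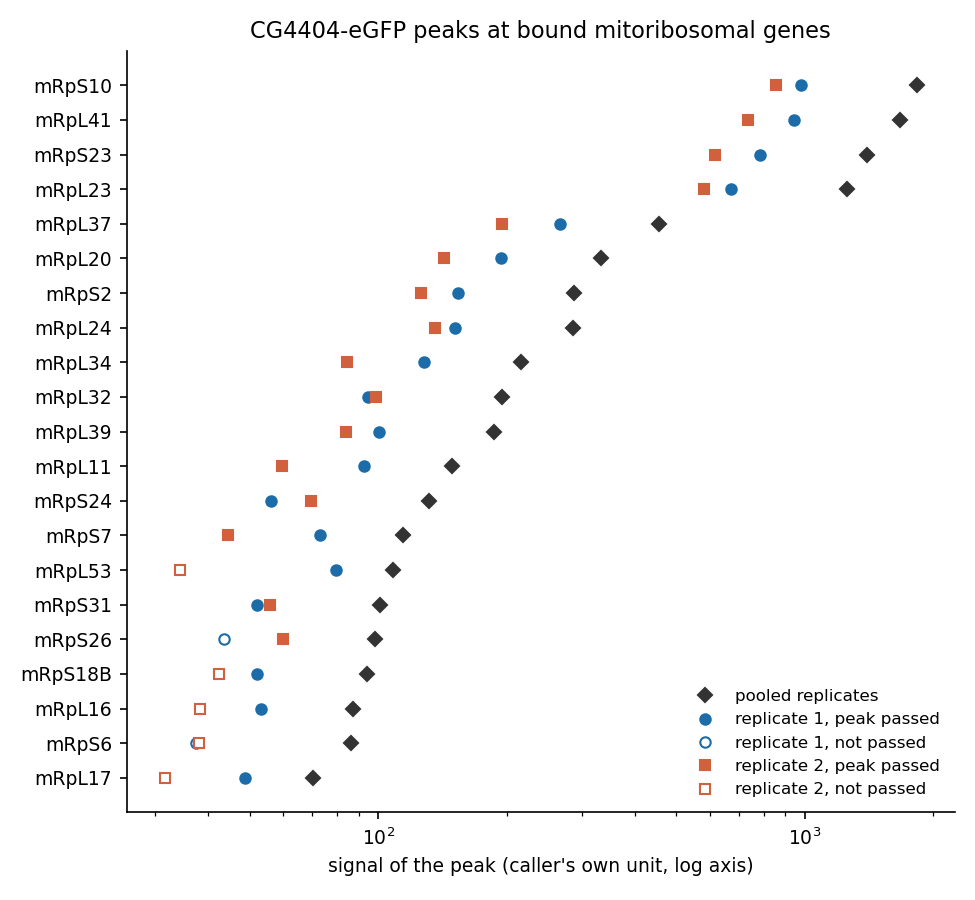
Signal of the peak at each of the 21 bound mitoribosomal genes on a log axis, for the pooled replicates (black), replicate 1 (blue) and replicate 2 (orange); open symbols mark peaks that did not pass the threshold of the authors in that replicate alone. The top 4 genes lie above 1000 in the pooled list, apart from mRpL37 at 455, and replicate 1 lies to the right of replicate 2 in 16 of 21 rows.

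Of the other 13 bound genes, 4 had pooled signals between 149 and 216. These were mRpL34 at 216, beside the dystroglycan gene Dg, mRpL32 at 195, beside the coenzyme Q synthesis gene qless, mRpL39 at 187, beside the proteasome subunit gene Prosbeta2, and mRpL11 at 149. Replicates 1 and 2 gave 128 and 84.7 at mRpL34, 94.8 and 98.8 at mRpL32, 101 and 84.1 at mRpL39, and 92.6 and 59.6 at mRpL11. All 4 peaks passed the threshold in both replicates.

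The remaining 9 had pooled signals between 70.2 and 132. They were mRpS24 at 132, beside the adenomatous polyposis coli homologue Apc2, mRpS7 at 114, beside the cell cycle kinase gene Cdk1, and mRpL53 at 108, beside the Argonaute gene AGO1. mRpS31 followed at 101, beside hzg, mRpS26 at 98.3, beside CG13698, mRpS18B at 94.1, beside Kua, and mRpL16 at 87.3, beside the histone methyltransferase gene trr. mRpS6 at 86.5, beside Cip4, and mRpL17 at 70.2, beside Tudor-SN, had the lowest signals. The summit near mRpL53 lies 36 bp from its TSS and equally near to a TSS of CG33155. Replicates 1 and 2 gave 56.2 and 69.8 at mRpS24, 73.1 and 44.5 at mRpS7, and 52.0 and 55.7 at mRpS31, with no shared order. In this range the replicates differed in their calls: 6 of the 9 peaks failed the threshold in at least 1 replicate, whereas all 12 stronger peaks passed in both.

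Both replicates taken alone bound 15 of the 21 genes. That count stands without a share over all bound protein-coding genes, so it cannot be called high or low for this family. Replicate 1 alone bound 21 genes, against 12.9% of all protein-coding genes, and 19 of them are in the pooled list. It lacked mRpS26 (43.5 and 59.95 in replicates 1 and 2) and mRpS6 (37.5 and 38.1) and added mRpS22 and mRpS25. Replicate 2 alone bound 16 genes, against 10.2%, all in the pooled list. It lacked mRpS6 and mRpL16 (53.2 and 38.3), mRpL17 (48.7 and 31.6), mRpL53 (79.5 and 34.3) and mRpS18B (52.0 and 42.5). mRpS6 passed in the pooled data but in neither replicate alone. The more cautious pooled list, named conservative by the authors, held the same 21 genes, against 13.9% of all protein-coding genes. Signal was higher in replicate 1 at 16 genes and in replicate 2 at 5, and the ratio of replicate 1 to replicate 2 ran from 0.726 to 2.32 with a median of 1.22. A difference of scale between the lists of the replicates was not tested and would enter these values and the SDs above. The same values over all peaks are not given. At the strongest 4 genes both replicates agree on the summit to within 7 bp, while at mRpL17 the summit of replicate 2 lay 163 bp from the pooled one.

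52 of the 73 genes were not bound, and most of them were far from any peak. The nearest summit was 678 bp away at mRpL38 and 1179 bp away at mRpL27, the first 2 outside the window, while mRpS23 at 392 bp and mRpS24 at 295 bp were the last inside it. No bound gene thus lay near the limit of 500 bp. Of the divergent pairs, mRpS25, mRpL41 and mRpL4, with gaps of 695, 762 and 793 bp, were the widest inside the limit of 1000 bp. Just outside it was mRpL49, whose upstream neighbour at 1087 bp is CG4404, the gene that was tagged here. mRpL49 was not bound: its strongest candidate summit lay at -433 bp from its TSS, with signals of 55.1 in the pooled data, 34.2 in replicate 1 and 19.8 in replicate 2.

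The ranked list of the authors, which keeps candidates that failed the threshold, placed a summit within 500 bp of 59 of the 73 genes. Most genes have such a candidate, at 71.9% of all protein-coding genes. By layout it was 52 of 58 divergent mitoribosomal genes (89.7%, 79.2% to 95.2%), against 78.1% of all divergent genes, and 7 of 15 others (46.7%, 24.8% to 69.9%), against 68.4%. The 31 unbound divergent genes that had one reached a median signal of 25.9, and the 7 other genes 33.3. The highest was at mRpS22, with 86.7 in the pooled data and 64.2 and 37.1 in replicates 1 and 2, above the weakest bound gene mRpL17 at 70.2. After mRpS22 came mRpL47 at 64.6, mRpS29 at 55.3, mRpL49 at 55.1, mRpS25 at 54.7 and mRpS16 at 51.1. mRpS29 encodes the homologue of the human death-associated protein DAP3. The bound and unbound genes therefore overlap in signal at the low end.

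A/T content set the summits apart from their surroundings. In windows of 101 bp at the summits of the 21 bound genes the median A/T content was 72.3%, and it ran from 44.6% at mRpL53 to 83.2% at mRpL20. In windows 500 bp away from the same summits it was 48.5%. The 1468 other summits at most 500 bp from a TSS of a protein-coding gene had a median of 68.3%, with quartiles of 60.4% and 74.3%, and windows 500 bp away from them 53.5%. The mean of the 7 arms was 57.9%. A run of 10 or more A or T bases occurred at 18 of the 21 summits (85.7%), against 61.2% of the other promoter summits. The exceptions were mRpL53, whose longest run was 4 bases, and mRpL16 and mRpL17 with 9 each. All bound mitoribosomal promoters other than that of mRpL53 were thus at or above 65.3% A/T. The ranges of these and of the other promoter summits overlap widely.

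**Figure D4:**
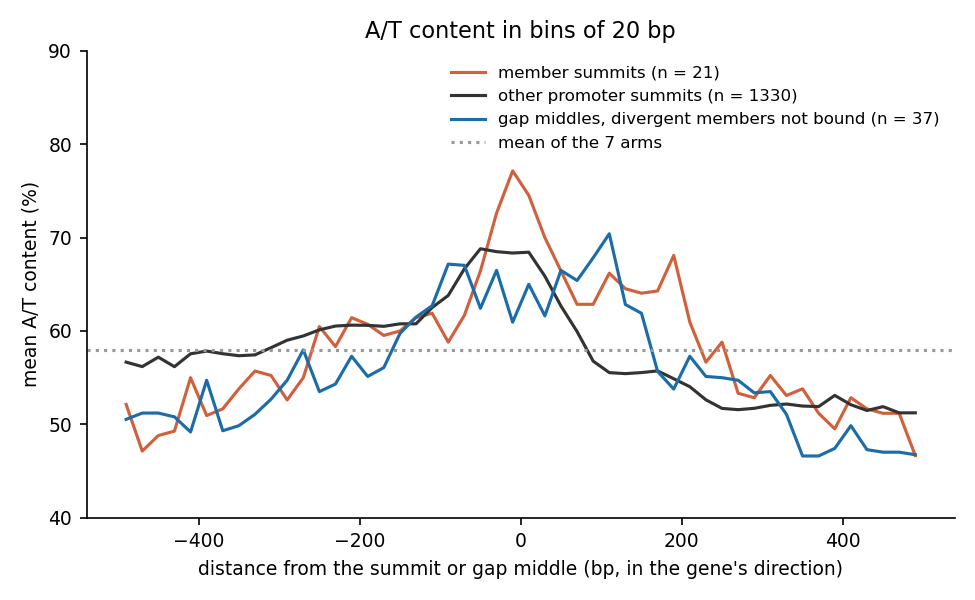
Mean A/T content in percent, in bins of 20 bp from 500 bp before to 500 bp after the summit, in the direction of the gene, for the 21 mitoribosomal summits (orange) and 1330 other promoter summits, 1 for each set of genes that share a strongest peak (black), and around the middle of the gap for the 37 divergent mitoribosomal genes that were not bound (blue). The orange line peaks at the summit, the black line is flat and high from about 50 bp before the summit up to it, both above the dotted mean of the arms at 57.9%, and the blue line shows a broad rise over the gap.

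Bound and unbound gaps overlapped in A/T content. In windows of 101 bp at the middle of the gap, the median was 69.3% for the 21 bound genes and 66.3% for the 37 unbound divergent genes, and over all divergent genes it was 71.3% and 66.3%. The quartiles were 57.4% and 71.3% for the unbound mitoribosomal gaps and 65.3% and 76.2% for the bound ones, so the groups overlap. In windows of 51 bp, which reach less far past short gaps, the medians were 70.6% for bound and 60.8% for unbound mitoribosomal gaps. A run of 10 or more A or T bases occurred in 52.4% and 32.4%. Over all bound and unbound divergent genes the medians were 70.6% and 66.7%, and such runs occurred in 46.2% and 33.1%. The median was thus lower at unbound gaps in this window. Unbound gaps were also shorter, with a lower quartile of length of 55 bp against 257 bp for bound ones. Windows at short gaps take in sequence of the genes on either side, and the part of gap length was not tested. The gap of mRpL2, at 41.3%, was low over its whole length. The gaps of mRpL27 and mRpL35, which were not bound, are shown to make this overlap visible. mRpL27, beside CG15435 at chr2L:4459639-4459728 (minus strand), is 70.0% A/T with 29 bases in runs, within the range of the bound windows above. mRpL35, beside Mitofilin at chr3R:22023336-22023526 (plus strand), is 61.3% A/T with no run. Capitals again mark runs of 8 or more A or T bases in dm6.
mRpL27: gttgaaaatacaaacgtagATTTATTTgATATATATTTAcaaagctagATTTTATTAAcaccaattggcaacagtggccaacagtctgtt
mRpL35: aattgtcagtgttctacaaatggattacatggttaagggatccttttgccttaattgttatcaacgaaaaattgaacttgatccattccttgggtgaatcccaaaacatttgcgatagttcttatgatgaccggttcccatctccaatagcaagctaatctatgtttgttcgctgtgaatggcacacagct

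The strongest candidate at mRpL27 had a signal of 18.7 and that at mRpL35 39.4, both under every bound gene. An A/T-rich gap of 91 bp was thus found without a called peak.

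Among short words, the 5 words of 8 bases with the largest excess at summits were picked from the 3814 peaks that lie at no mitoribosomal gene, and all 5 consist of A and T. At least 1 of them occurred within 100 bp of the summit at 11 of the 21 genes, against 1 of 21 in windows 500 bp away. At the other peaks the shares were 35.6% and 17.5%. Of the motifs searched on both strands in the same windows of 201 bp, the TATA word TATAAA was at 10 of 21 summits (47.6%), against 2 of 21 away from the summits and 39.3% of other promoter summits. Its letters overlap the A/T runs. The DNA replication-related element (DRE, TATCGATA) was at 3 of 21, against 5.31%, and the BEAF word CGATA, which is part of the DRE, at 8 of 21, against 34.5%. The initiator word TCAGT was at 2 of 21, against 32.2%. The GAGA word GAGAG was at 5 of 21, against 19.8%, and the Zelda word CAGGTAG at 0 of 21, against 0.681%. Ohler motifs 1, 6 and 7 of fly core promoters were at 0, 1 and 2 of 21, against 1.02%, 0.613% and 14.1%. With 21 windows these shares have wide intervals, for example 4.98% to 34.6% for the DRE, and a match of letters is not a shown binding site.

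Of the 10 motifs counted in the promoters, the E-box word stood furthest above its background, at bound and unbound genes alike. The E-box word CAGCTG, known as Ohler motif 5 of fly core promoters, is palindromic and was counted from 250 bp before to 50 bp after the most upstream TSS. It occurred at 40 of 73 genes (54.8%, 43.4% to 65.7%), against 17.7% of all protein-coding genes and 22.0% of all divergent ones, both below the interval. The share was 11 of 21 among bound genes (52.4%) and 29 of 52 among unbound genes (55.8%). By layout it was 31 of 58 divergent and 9 of 15 other genes, and by subunit 27 of 47 large-subunit and 13 of 26 small-subunit genes. Of all bound protein-coding genes 23.2% held the word.

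Families with related products held the word less often in these counts, which were not tested. The word occurred at 9 of 93 cytosolic ribosomal protein genes (9.68%, 5.18% to 17.4%) and at 20 of 86 genes of the respiratory chain and ATP synthase (23.3%, 15.6% to 33.2%), and neither interval overlaps that of the mitoribosomal genes. Where it occurred in the mitoribosomal promoters, the copy nearest to the TSS began at a median of 4 bp downstream, and 35 of 40 began within 50 bp of the TSS, including all 11 at bound genes. Over all protein-coding genes the word was most frequent there too. It was in 5.25% of them in the 50 bp before the TSS and in 4.53% in the 50 bp after it. The shares of the mitoribosomal genes were 17.8% and 30.1%. At the summits, by contrast, it was within 100 bp at 4 of 21 genes (19%), against 10.1% of other promoter summits. The DRE was in 15 of 73 promoters (20.5%, 12.9% to 31.2%), against 9.36% of all protein-coding and 15.8% of all divergent genes. It was in 7 of 21 bound and 8 of 52 unbound promoters. Ohler motif 7 was in 20 of 73 (27.4%, 18.5% to 38.6%), against 13.03% of all protein-coding genes, and the BEAF word in 43 (58.9%, 47.4% to 69.5%), against 47.4%. Below the background were the GAGA word, in 12 (16.4%, 9.66% to 26.6%) against 29.8%, and the initiator word, in 28 (38.4%, 28.1% to 49.8%) against 51.6%. The TATA word was in 34 (46.6%) against 45.9%, Ohler motifs 1 and 6 in 6 and 3 (8.22% and 4.11%) against 4.49% and 2.23%, and the Zelda word in 0 against 1.64%. Apart from the E-box word and the DRE, these motifs have no share over all divergent genes beside them. The part of layout in their differences was not tested.

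The gaps of mRpL32 and mRpS2 show examples of upstream copies, with the E-box word in capitals and the mitoribosomal TSS just past the right end. The copy nearest to the TSS begins 16 bp upstream at mRpL32 and 11 bp upstream at mRpS2. Over the 11 bound genes with the word the median was 13 bp downstream, which a gap cannot show. mRpL32 lies at chr3R:31252609-31252871 (plus strand) and holds 3 copies, of which a pair stands at the qless end and 1 at the mRpL32 end. mRpS2 lies at chr2L:4850420-4850640 (minus strand) and holds 1 copy, at the mRpS2 end. In both, the A/T-rich summit lies in lower case further to the left, 97 and 133 bp from the mitoribosomal TSS. The mRpL32 gap also holds a DRE, 27 bp upstream of the TSS.
mRpL32: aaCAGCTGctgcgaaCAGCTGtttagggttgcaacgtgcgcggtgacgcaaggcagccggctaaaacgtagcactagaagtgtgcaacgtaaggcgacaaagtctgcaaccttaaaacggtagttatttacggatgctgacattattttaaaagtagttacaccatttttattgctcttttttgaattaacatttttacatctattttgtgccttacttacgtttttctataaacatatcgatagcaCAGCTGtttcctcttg
mRpS2: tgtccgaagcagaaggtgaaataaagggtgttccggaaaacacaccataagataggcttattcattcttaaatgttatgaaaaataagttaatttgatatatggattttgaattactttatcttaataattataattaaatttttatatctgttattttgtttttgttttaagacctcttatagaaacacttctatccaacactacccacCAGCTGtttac

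**Figure D5:**
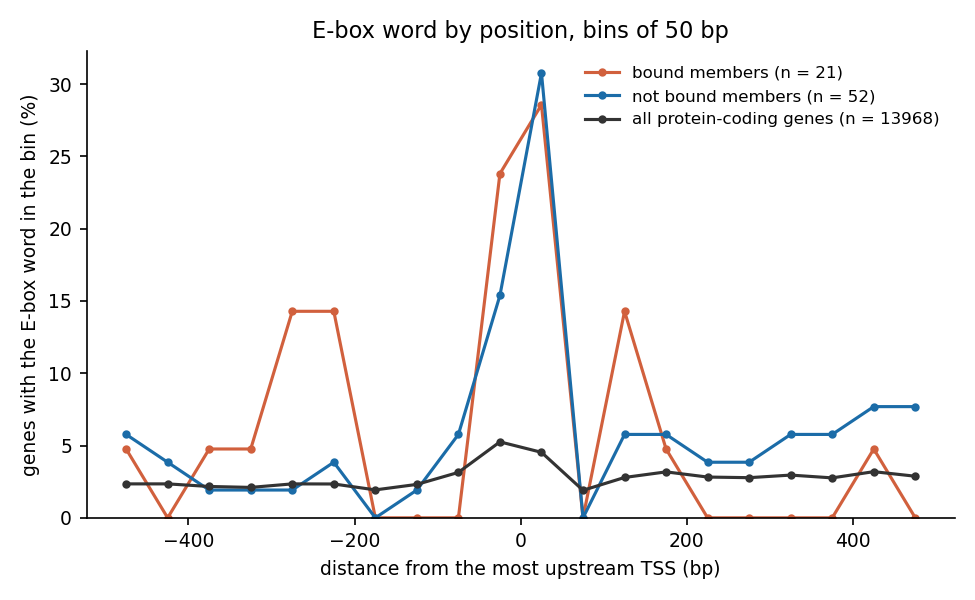
Share of genes in percent that hold the E-box word in each bin of 50 bp, by distance from the most upstream TSS, for the 21 bound (orange) and 52 unbound (blue) mitoribosomal genes and all 13968 protein-coding genes (black). Both mitoribosomal lines rise next to the TSS, where 28.6% of bound and 30.8% of unbound genes hold the word in the bin from 0 to 50 bp. The black line is also highest next to the TSS, with 4.53% in that bin.

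Over 6 small lists of other genes of mitochondrial gene expression, 5 of 41 were bound (12.2%, 5.32% to 25.5%), near the 14.2% of all protein-coding genes. The further mitoribosomal genes tko and bonsai, which encode small-subunit proteins under other names, were not bound. Neither was any of 9 mitochondrial translation factor genes. Of 15 genes for mitochondrial aminoacyl-tRNA synthetases, which charge tRNAs, 1 was bound, ProRS-m at 139. Of the 3 genes for the glutamyl-tRNA amidotransferase, GatA was bound at 115. Of 9 genes for mitochondrial transcription and RNA proteins, SLIRP1, an RNA-binding protein gene, was bound at 163 and mTerf5, of the transcription termination factor family, at 92.2. The single-stranded DNA binding protein gene mtSSB, at 171, was the only 1 of 3 genes for mitochondrial DNA replication. In lists of this size an absence was not distinguishable from the background.

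Larger related families were counted in the same way. Cytosolic ribosomal protein genes were bound at 36 of 93 (38.7%, 29.4% to 48.9%), an interval that overlaps that of the mitoribosomal genes. RpL34b had the highest signal of these, at 517, followed by RpL32 at 413, and none came near the 4 highest mitoribosomal genes. Genes of the respiratory chain and ATP synthase were bound at 13 of 86 (15.1%, 9.05% to 24.2%), all 13 among their 44 divergent genes and 0 among their 42 others. The complex I subunit genes ND-MWFE at 477 and ND-ASHI at 287 had the highest signals there. Those 13 of 44 (29.5%, 18.2% to 44.2%) stand near the 27% of all divergent genes, and 0 of 42, which allows up to 7.14%, was not distinguishable from the 6.95% of all genes without a partner. Of the cytosolic ribosomal genes, 27 of 56 divergent ones (48.2%, 35.7% to 60.99%) and 9 of 37 others (24.3%, 13.4% to 40.1%) were bound, both intervals lying above those backgrounds. Whether the families differ in how binding follows the layout was not tested.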

How the data were processed

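The members, gene lists, motifs and bins were chosen with earlier results of these data known. Per the file headers, the authors mapped reads to dm6 and deposited a ranked and a thresholded peak list per replicate and for pooled replicates. The deposited signal of each peak is the value of the authors' caller, and the deposited −log10 of the irreproducible discovery rate (IDR) gives how well a peak recurs; thresholded peaks have an IDR of 0.01 or less. Aligner and caller: not given in the sources used here. Read depth was not used, so the number of peaks limits the precision. Peaks were called per replicate and on pooled replicates.

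Summits on 7 arms were assigned with Python 3.11.15, NumPy 2.4.6 and pandas 2.3.3 to all TSSs of protein-coding genes (Ensembl 115, BDGP6, the same assembly as dm6). The assignment was tested on simulated peaks. The sequence is RefSeq's copy of that assembly, with arm lengths checked. A replicate's value at a pooled peak is the strongest overlapping peak of its own ranked list. With 1 group no test was made and no p-value is given; shares carry Wilson intervals at 95%. Every bound gene and its partner was named, apart from 1 partner that is not reported here, and of the unbound genes up to 6 nearest to a summit, up to 6 of highest ranked signal and those next to each threshold; the gaps of mRpL27 and mRpL35 were chosen after their values were seen. Of 10 listed translation factors 9 matched the annotation, as did 9 of 10 transcription and RNA genes and 3 of 5 replication genes. Alternatives were other lists, windows, IDR limits and assignment rules.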

Additional observations from a re-analysis of the deposited data

Results flagged for a closer look

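mRpL47 had a signal in data outside the thresholded lists. Its candidate peak, 9 bp upstream of the TSS in a gap of 99 bp shared with CG8176, had a pooled signal of 64.6, with 35.9 in replicate 1 and 32.0 in replicate 2. In the ranked list that compares the replicates its −log10 IDR was 2.13, past the threshold of 2, yet no thresholded list holds it. In the ranked list of the pooled data its −log10 IDR was 0.29. Of 3801 ranked peaks on the arms that passed between the replicates, 114 were likewise missing from the conservative list, and the reason was not tested.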

How the results depend on the processing

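Of 101 recomputed values under 18 alternative settings, 72 moved by less than their counting interval or the spread between replicates, and 29 by more. None of the values changed sign, which only the median distance could have done. The bound shares moved only where each summit counted for its nearest TSS alone, to 15.1% of all 73 genes, 19% of divergent, 14.9% of large-subunit and 15.4% of small-subunit genes. The median signal of bound genes, 187, was 216 at an IDR of 0.001 or less, 168 with a TSS window of 1000 bp, 168 when any part of a peak counted and 114 under the nearest-TSS rule. With either replicate left out it was 94.8 to 112, on the scale of a single replicate, and the median distance was -151 to -132 bp. In summit windows of 101 bp the shares fell to 0% for the DRE, Ohler 5, Ohler 7 and initiator words, 4.76% for the BEAF word and 9.52% for the GAGA word. In windows of 501 bp they were 81% for BEAF, 47.6% for GAGA, 47.6% for Ohler 5, 38.1% for Ohler 7 and 52.4% for the initiator. In promoters 500 bp either side they were 86.3% for BEAF, 76.7% for TATA, 53.4% for GAGA, 72.6% for Ohler 5, 41.1% for Ohler 7 and 78.1% for the initiator. Wider windows hold more matches by construction. The median A/T content was 74.5% in windows of 51 bp and 68.2% in windows of 201 bp, alternatives chosen after seeing the data. No paired analysis was possible because the replicates form 1 group and no test compares groups. Without counts or an input library, weak peaks cannot be told apart from noise beyond the threshold of the authors. Of the 21 genes, 6 did not pass in both replicates, a count without a share over all bound genes beside it.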
